A study of Homo sapiens with 6 samples.

Results

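Wnt ligands are secreted glycoproteins that carry an acyl chain, which PORCN attaches in the endoplasmic reticulum and which WLS recognises on the way to the cell surface. Outside the cell they bind Frizzled receptors with LRP5 or LRP6 and keep β-catenin from being degraded, or they act through ROR and RYK receptors on cell polarity and calcium. In the mammary gland they are known for roles in ductal branching and in stem and progenitor cells.

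Messenger RNA of 10 Wnt ligand genes (WNT3, WNT3A, WNT4, WNT5A, WNT6, WNT7B, WNT9A, WNT10A, WNT10B and WNT11) was measured in SKBR3 cells, a human HER2-amplified breast adenocarcinoma line. The 10 genes were chosen by name from a table of 54644 gene rows, and each had a row of its own. Control cells carried the empty lentiviral pLVX vector and CTTN cells carried pLVX-CTTN, which encodes cortactin, an actin-binding protein; both were stable lines made by infection and puromycin selection, with 3 biological replicates each. Whether the replicates came from separate infections was not given in the sources used here, so the p-values below measure the spread between these libraries. The comparison asked which transcripts changed when cortactin was overexpressed.

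Each library held between 34887079 and 41279658 fragments in gene rows, a fragment being 1 sequenced piece of cDNA. The CTTN gene itself was at 263, 329 and 180 FPKM in CTTN replicates 1 to 3 and at 104, 108 and 108 FPKM in the controls, so each library matched its label. FPKM is the number of fragments scaled to transcript length and to the fragments in the library. Of the luminal and HER2 markers, 9 of 10 passed the low-count filter and 0 were called, in a fit that called 4.20% of all tested genes, whereas CDH1, the epithelial cadherin, had between 7 and 15 fragments per library. The libraries also differed in a way that the ligands' lengths touch: genes whose leading isoform was over 5000 bases had a median shift from the control mean of -0.38, 0.01 and -0.80 (log2) in CTTN replicates 1, 2 and 3. Genes under 1500 bases had median shifts of 0.20, 0.03 and 0.40 in the same libraries.

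Below, 3 RefSeq promoter windows (GRCh38.p14) are printed 5′ to 3′ along the gene's strand. Each covers 250 bases before and 50 bases after the start. They show where the ligand whose transcript rose starts, and the 2 start regions with the highest mean share of WNT5A counts in each group. Capitals mark a GC box, GGGCGG on either strand, the letters that SP-family factors bind. The first window is WNT6, on the plus strand at chr2:218859555-218859854. The other 2 are on the minus strand, WNT5A promoter 1 at chr3:55487257-55487556 and WNT5A promoter 2 at chr3:55481349-55481648.
WNT6: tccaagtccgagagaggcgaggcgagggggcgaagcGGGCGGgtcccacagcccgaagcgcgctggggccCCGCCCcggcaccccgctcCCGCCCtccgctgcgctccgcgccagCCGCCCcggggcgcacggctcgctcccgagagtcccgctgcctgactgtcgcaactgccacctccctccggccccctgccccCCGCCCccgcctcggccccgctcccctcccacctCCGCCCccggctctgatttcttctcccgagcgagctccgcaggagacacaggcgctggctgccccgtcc
WNT5A promoter 1: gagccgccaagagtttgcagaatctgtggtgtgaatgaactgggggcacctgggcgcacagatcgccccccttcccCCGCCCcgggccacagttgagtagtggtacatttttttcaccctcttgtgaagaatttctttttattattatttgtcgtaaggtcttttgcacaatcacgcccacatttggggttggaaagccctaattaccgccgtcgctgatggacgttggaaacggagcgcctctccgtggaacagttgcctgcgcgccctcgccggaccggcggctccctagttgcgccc
WNT5A promoter 2: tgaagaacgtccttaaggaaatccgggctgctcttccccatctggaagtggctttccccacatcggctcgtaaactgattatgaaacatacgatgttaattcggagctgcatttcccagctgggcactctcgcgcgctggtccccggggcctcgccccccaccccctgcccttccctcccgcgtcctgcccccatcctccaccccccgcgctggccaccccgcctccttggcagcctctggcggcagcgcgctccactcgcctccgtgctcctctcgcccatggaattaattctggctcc

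The WNT6 window held 6 GC boxes, and its GC content was 78.0% with 37 CpG sites. Over all 35116 windows of the table the median GC content was 58.7%, the median was 14 CpG sites, and 45.0% held at least 1 GC box. WNT5A promoter 1 held 1 GC box at 56.3% GC, and promoter 2 held none at 63.7% GC. Neither the TCF/LEF letters CTTTGAT and CTTTGAA, which mark many β-catenin target genes and stood in 6.86% of all windows on either strand, nor TATAAA, which stood in 11.5%, was in any of the 8 windows found for 7 of the 10 ligands. WNT7B, WNT10B and WNT11 were not matched.

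WNT7B was the most abundant ligand transcript in both groups, and WNT6 was among the scarce ones in control cells. In order of the control mean, the levels were 52.5 ± 3.2 FPKM for WNT7B, 21.5 ± 0.64 for WNT5A, 12.0 ± 0.53 for WNT9A and 5.90 ± 0.25 for WNT4 (SD, n = 3). These 4 genes did not overlap their neighbours in the order, in either group. A step of 10.2 times in mean FPKM separated WNT4 from WNT3. Below that step came WNT3 at 0.580 ± 0.073 FPKM, WNT10B at 0.566 ± 0.139 and WNT6 at 0.231 ± 0.136 (SD, n = 3), of which WNT3 and WNT10B overlapped. WNT3A, WNT10A and WNT11 had control means of 0.0653, 0.0320 and 0.0173 FPKM, and each overlapped the next in the controls. In CTTN cells WNT6 was the fifth in order, at 1.85 ± 1.20 FPKM (SD, n = 3), and its lowest library, at 0.827 FPKM, lay above the highest of WNT10B, at 0.766 FPKM.

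**Figure D1:**
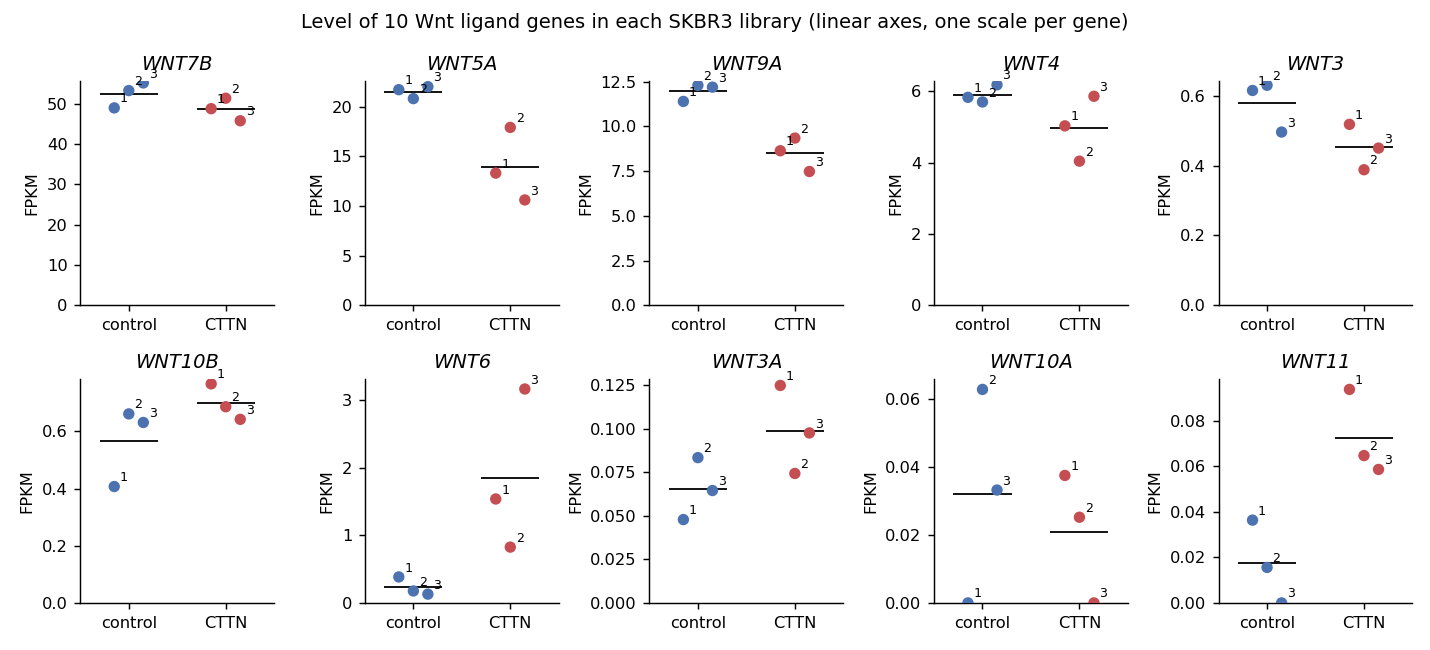
FPKM of each of the 10 Wnt ligand genes in the 3 control (blue) and 3 CTTN (red) libraries, numbered by replicate, with a black line at the group mean and a linear axis of its own for each gene. WNT6 sits between 0.827 and 3.17 FPKM in CTTN cells and between 0.130 and 0.385 FPKM in control cells.

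The 10 ligands together summed to between 89.4 and 96.9 FPKM in the control libraries and to between 74.2 and 84.8 FPKM in the CTTN libraries. WNT7B made up 54.8%, 56.9% and 56.9% of that sum in the controls and 61.9%, 60.7% and 61.7% in CTTN replicates 1 to 3. WNT5A made up 24.3%, 22.2% and 22.7% in the controls against 16.9%, 21.1% and 14.4%. The WNT6 share went from between 0.134% and 0.431% in the controls to between 0.975% and 4.28% in CTTN cells. The totals of FPKM over all genes differed as well, from 603634 to 624680 in the controls and from 605260 to 852256 in CTTN cells, with CTTN replicate 3 highest.

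Of the 10 ligands, 7 passed the low-count filter and were tested with all genes in 1 fit. WNT6 was called higher and 0 ligands were called lower, where a call was an adjusted p under 0.05. The background was 2.29% of the 14433 tested genes called higher and 1.91% called lower. The median log2 fold change of the 7 ligands was -0.26, beside 0.01 over all tested genes.

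WNT6, a ligand known from kidney tubule and epithelial development (chromosome 2, 218859821 to 218874233, GRCh38), rose in CTTN cells. It had 50, 33 and 87 fragments in CTTN replicates 1 to 3 and 12, 7 and 5 fragments in control replicates 1 to 3. All 3 CTTN libraries lay above all 3 controls, with CTTN replicate 3 highest and CTTN replicate 2 nearest to the controls. The log2 fold change was 2.95 ± 0.54 (SE), or 7.72-fold, with an edgeR adjusted p of 0.033. Only 8 tested genes, WNT6 included, had a log2 fold change at least as large, and all 8 were called higher. WNT6 passed the low-count filter through its CTTN libraries, while WNT3A, with 4, 8 and 6 control fragments, was not tested. Its rank among tested genes therefore rests on the group in which WNT6 was high. Without the filter the WNT6 log2 fold change was 2.94 with an edgeR adjusted p of 0.013. The leading WNT6 isoform is 1703 bases long with 70.4% GC, and genes over 60% GC had median shifts of 0.19, 0.13 and 0.29 (log2) in CTTN replicates 1 to 3, while WNT6 was shifted by 2.31, 1.73 and 3.07.

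The size of the WNT6 difference kept its direction whichever library was left out, but the call did not. Its edgeR adjusted p was 0.12 without CTTN replicate 1, 0.11 without control replicate 1, 0.18 without control replicate 2 and 0.16 without control replicate 3, with log2 fold changes between 2.72 and 3.41. In those fits between 0.102% and 0.205% of all genes were called. The adjusted p was 0.0016 without CTTN replicate 2, where 47.2% of all genes were called, and 0.0099 without CTTN replicate 3, where 8.54% were called. In CTTN replicate 2, whose long and short genes stood near the controls, WNT6 was 1.73 above the control mean on the log2 scale, and that library alone against the 3 controls gave a log2 fold change of 2.04 ± 0.51 (SE) with an edgeR adjusted p of 0.0059. There 14.1% of all genes were called, and the lone library is assumed to vary like the controls. With offsets for length and GC content in each library the WNT6 value was 2.35 ± 0.38 (SE) and the edgeR adjusted p 0.0090, in a fit that called 13.9% of all genes. On log2(FPKM + 0.1) and log2(FPKM + 1), scales that understate the change of low genes, limma gave 2.45 and 1.13 with adjusted p of 0.073 and 0.11.

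**Figure D2:**
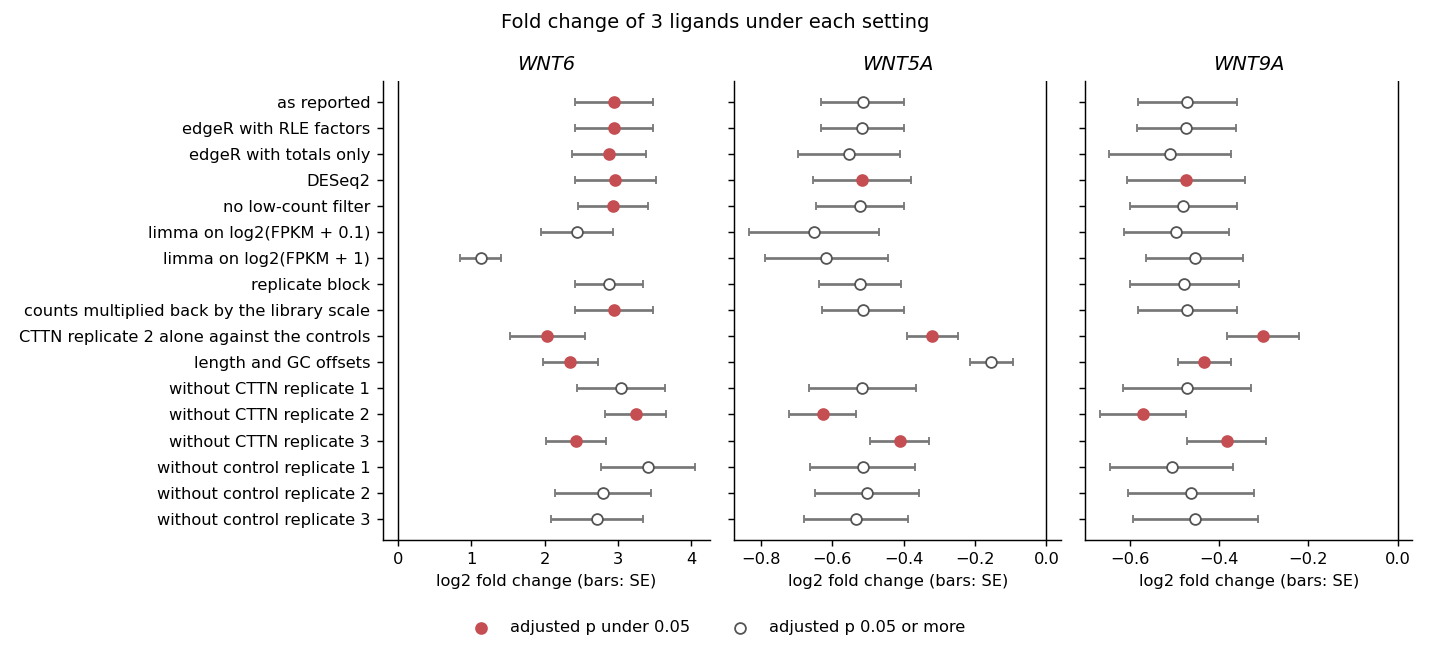
Log2 fold change, CTTN over control, of WNT6, WNT5A and WNT9A under each setting, with SE bars and filled points where the adjusted p is under 0.05; each panel has its own axis. WNT6 stays between 1.13 and 3.41, and WNT5A and WNT9A stay below 0.

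**Figure D3:**
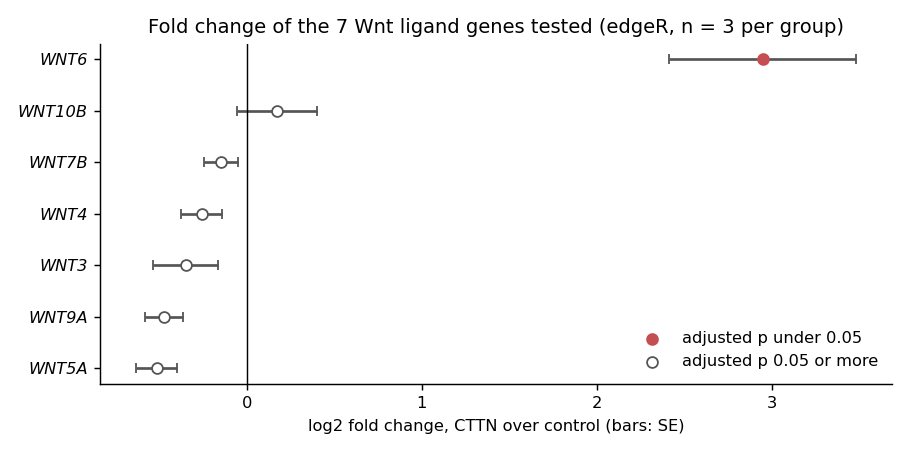
Log2 fold change, CTTN over control, of the 7 tested Wnt ligands with SE bars (edgeR, n = 3 per group). WNT6 at 2.95 is the filled point, and the other 6 lie between -0.51 and 0.17.

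WNT5A, the best known ligand of the β-catenin-independent branch (chromosome 3, 55465715 to 55490539), was lower in every CTTN library without reaching the threshold. Its levels were 13.3, 17.9 and 10.6 FPKM in CTTN replicates 1 to 3 and 21.7, 20.8 and 22.0 FPKM in the controls. The groups did not overlap, and CTTN replicate 3 was lowest. The log2 fold change was -0.51 ± 0.12 (SE), 30.0% lower, with an edgeR adjusted p of 0.056. DESeq2, which called 14.3% of all genes, gave -0.52 and an adjusted p of 0.0039. Without CTTN replicate 2 the edgeR adjusted p was 0.0022 and without CTTN replicate 3 it was 0.020, in fits that called 47.2% and 8.54% of all genes. It was 0.21 without CTTN replicate 1 and 0.21, 0.23 and 0.21 without control replicates 1, 2 and 3. Those fits called between 0.102% and 0.205% of all genes. The leading WNT5A isoform is 6176 bases long with 41.6% GC, so WNT5A is among the genes over 5000 bases, and its own shifts of -0.54, -0.30 and -0.87 stood beside medians of -0.38, 0.01 and -0.80 for those genes. With the length and GC offsets its log2 fold change was -0.15 ± 0.06 (SE), with an edgeR adjusted p of 0.13.

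WNT9A, a ligand with roles in joint and blood development (chromosome 1, 227918656 to 227947898), was at 8.64, 9.35 and 7.48 FPKM in CTTN replicates 1 to 3 and at 11.4, 12.3 and 12.2 FPKM in the controls. The groups did not overlap, with CTTN replicate 3 again lowest. The log2 fold change was -0.47 ± 0.11 (SE), 27.9% lower, with an edgeR adjusted p of 0.061. DESeq2 gave an adjusted p of 0.0059, and edgeR gave 0.0030 without CTTN replicate 2 and 0.032 without CTTN replicate 3. The edgeR adjusted p was 0.22 without CTTN replicate 1 and 0.20, 0.25 and 0.24 without control replicates 1, 2 and 3. Its leading isoform is 3971 bases long, in the range from 1500 to 5000 bases, whose median shifts were -0.02, 0.02 and -0.14, while WNT9A was shifted by -0.50, -0.28 and -0.79. With the length and GC offsets the WNT9A value was -0.43 ± 0.06 (SE) and the edgeR adjusted p 0.0047. WNT6, WNT5A and WNT9A were the 3 of 7 tested ligands whose groups did not overlap, and 38.6% of all tested genes had groups that did not overlap.

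**Figure D4:**
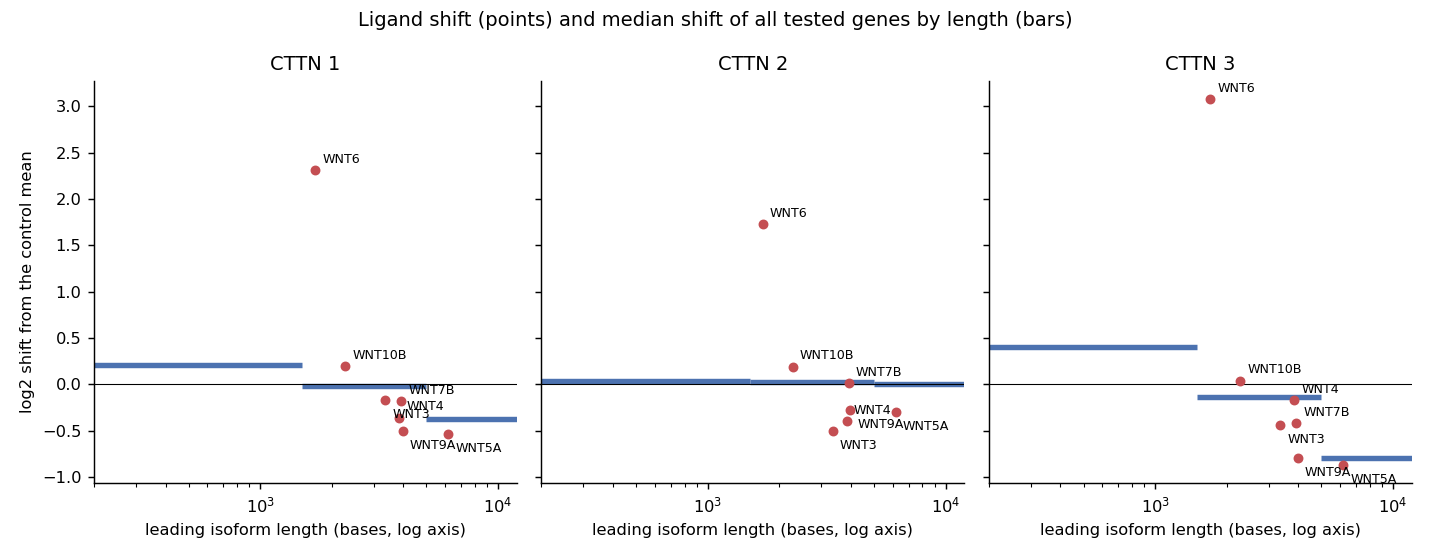
Shift of each tested ligand from the control mean (red points, log2) in CTTN replicates 1, 2 and 3 against the length of its leading isoform (log axis), with blue bars for the median of all tested genes under 1500, from 1500 to 5000 and over 5000 bases. The bars slope in replicates 1 and 3 and are flat in replicate 2, where WNT6 is at 1.73 and WNT5A at -0.30.

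WNT7B, which is known from lung and kidney epithelium, was at 48.8, 51.4 and 45.8 FPKM in CTTN replicates 1 to 3 and at 49.0, 53.3 and 55.2 FPKM in the controls. The groups overlapped, and the log2 fold change was -0.15 ± 0.10 (SE) with an edgeR adjusted p of 0.31. WNT4, the progesterone-induced ligand of the mammary gland, was at 5.03, 4.04 and 5.86 FPKM in CTTN cells and at 5.83, 5.70 and 6.18 FPKM in the controls. CTTN replicate 3 lay within the control range and the other 2 below it. The WNT4 log2 fold change was -0.26 ± 0.12 (SE) with an edgeR adjusted p of 0.18, and -0.37 with an adjusted p of 0.035 when CTTN replicate 3 was left out. In the other fits that left out 1 library, the edgeR adjusted p of WNT4 was between 0.18 and 0.39. CTTN replicate 2 alone against the controls, in the fit that called 14.1% of all genes, gave -0.42 and an edgeR adjusted p of 0.0029.

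WNT3, a canonical ligand, was at 0.518, 0.388 and 0.450 FPKM in CTTN replicates 1 to 3 and at 0.615, 0.630 and 0.496 FPKM in the controls. Its groups overlapped through CTTN replicate 1 and control replicate 3, and the log2 fold change was -0.35 ± 0.19 (SE) with an edgeR adjusted p of 0.23. WNT10B, known for holding back fat cell formation, was at 0.766, 0.686 and 0.642 FPKM in CTTN cells and at 0.407, 0.661 and 0.631 FPKM in the controls. Control replicate 1 was low and the other 5 libraries lay close together. The WNT10B log2 fold change was 0.17 ± 0.23 (SE) with an edgeR adjusted p of 0.61, and it was -0.027 without control replicate 1.

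WNT3A, WNT10A and WNT11 were too scarce to be tested. WNT3A, the ligand most used to activate β-catenin in culture, had 10, 7 and 7 fragments in CTTN replicates 1 to 3 and 4, 8 and 6 in the controls. WNT10A, mutated in inherited tooth and hair disorders, had 2, 2 and 0 fragments in CTTN cells and 0, 4 and 2 in the controls, although it begins next to WNT6 on chromosome 2 (218880363 to 218899581). Neither gene separated the groups. WNT11, a ligand of cell movement, had 5, 4 and 3 fragments in CTTN cells and 2, 1 and 0 in the controls. All 3 CTTN libraries were above the controls, a ratio of 4.24 over the summed fragments with an exact 95% interval from 1.14 to 23.4 that covers counting error only. Groups that do not overlap were found in 25.0% of the rows with any fragment, and a count of 0 in a library allows up to 3 fragments.

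Of the other 9 human ligand genes, WNT1, WNT7A, WNT8A, WNT8B, WNT9B and WNT16 had 0 fragments in all 6 libraries. WNT2 had 8, 7 and 19 fragments in CTTN replicates 1 to 3 and 3, 4 and 3 in the controls, a ratio of 3.60 with an exact 95% interval from 1.74 to 8.17 for counting error, and was too scarce to be tested. WNT2B was tested, with a log2 fold change of -0.019 ± 0.488 (SE) and an edgeR adjusted p of 0.98. WNT5B had at most 3 fragments in any library.

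Start sites were examined to see which one carried each ligand. The 10 ligands had 33 start-site groups, of which 14 passed the filter. edgeR called 0 of 35916 start-site groups in the whole table, 10.4% had an unadjusted p under 0.05, and DESeq2 called 2.98%. All WNT6 counts were assigned to the start site of transcript ENST00000233948, whose first bases are in the window printed for WNT6, with a log2 fold change of 2.96 ± 0.61 (SE) and an edgeR adjusted p of 0.37, and of 0.0037 by DESeq2. WNT7B, WNT9A, WNT3 and WNT3A likewise had at least 99.4% of their counts at 1 start-site group in every library.

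WNT5A differed from these in spreading over 7 start-site groups. The start site of ENST00000264634, in the window printed as WNT5A promoter 1, took 40.1%, 67.5% and 17.5% of the WNT5A counts in CTTN replicates 1 to 3 and 67.4%, 80.3% and 66.5% in the controls. CTTN replicates 1 and 3 were low, and replicate 2 lay within the control range. The start site of ENST00000497027, in the window of promoter 2, took 46.9%, 15.6% and 76.4% in CTTN cells and 25.0%, 5.9% and 14.6% in the controls. Here CTTN replicates 1 and 3 were high. The log2 fold changes were -1.20 ± 0.57 (SE) and 1.02 ± 0.66 (SE), with edgeR adjusted p of 0.49 and 0.54. Another start-site group took 8.7%, 12.8% and 0.0% in CTTN cells and 4.7%, 11.6% and 17.7% in the controls. It took more than promoter 2 in control replicates 2 and 3. The annotated start site of ENST00000474267 took 2.5%, 1.6% and 6.1% in CTTN cells and 0.1%, 0.2% and 0.0% in the controls, higher in each CTTN library. Its log2 fold change was 4.27 ± 1.10 (SE) with an edgeR adjusted p of 0.46, and it is named after its values were seen. CTTN replicates 1 and 3 were also the libraries whose long genes were low, and the part of that in the split was not tested. These shares are Cufflinks estimates that divide overlapping transcripts.

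**Figure D5:**
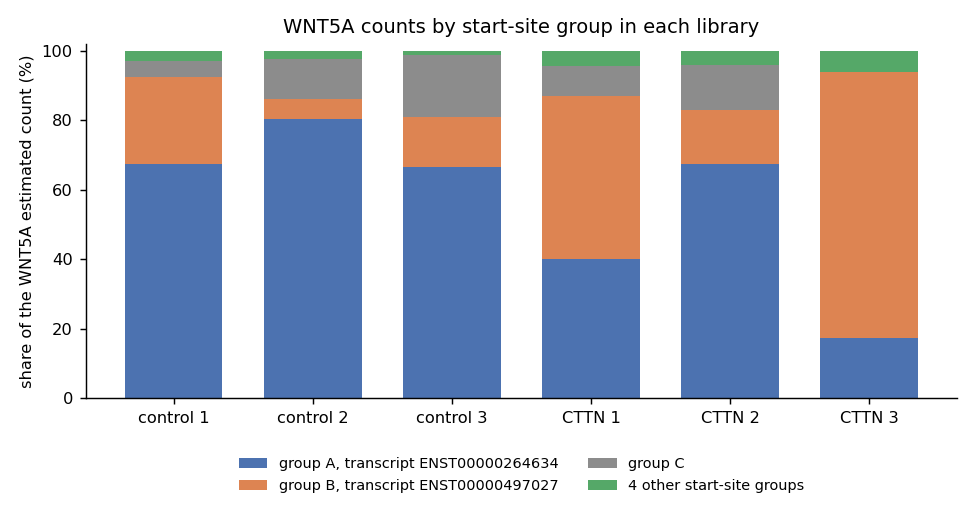
Share of the WNT5A estimated count, in percent, at each start-site group in the 3 control and 3 CTTN libraries, stacked to 100. Group A, at promoter 1, takes 66.5% to 80.3% in the controls and 17.5% to 67.5% in CTTN cells, and group B, at promoter 2, is the larger in CTTN replicates 1 and 3.

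The rest of the Wnt pathway was read from 8 lists with 90 genes, of which 65 were tested. KREMEN2 was called higher and RHOU was called lower, 3.08% of those tested, against 4.20% of all tested genes. Ligand export was covered by 11 genes, of which 10 were tested and 0 called. PORCN, the acyltransferase, was at 10.5, 9.95 and 10.7 FPKM in CTTN replicates 1 to 3 and at 8.79, 8.53 and 9.48 in the controls. Its groups did not overlap, and the log2 fold change was 0.31 ± 0.09 (SE) with an edgeR adjusted p of 0.090, and with the length and GC offsets it was 0.044 with an adjusted p of 0.74. WLS, the ligand carrier, had 0.18 ± 0.10 (SE) and an edgeR adjusted p of 0.23. The most abundant export gene was TMED10, a cargo receptor, at a control mean of 189 FPKM. Of the 3 enzymes that inactivate ligands 0 were called, and NOTUM, which removes the acyl chain, was at 1.52 FPKM in the controls with a log2 fold change of 0.51 ± 0.14 (SE) and an edgeR adjusted p of 0.083, and 0.19 with an adjusted p of 0.34 under those offsets. Without CTTN replicate 2, where 47.2% of all genes were called, PORCN was at 0.34 and NOTUM at 0.56 with edgeR adjusted p of 0.015 and 0.018, and CTTN replicate 2 alone gave 0.33 for WLS with an adjusted p of 0.0076.

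Of 16 receptors and co-receptors, 13 were tested and 0 called, with a median log2 fold change of -0.15. LRP5 had the highest control mean, at 33.0 FPKM, while ROR1 and ROR2, receptors of WNT5A, had at most 2 fragments in either group. Of 14 secreted antagonists and partners only 3 were tested, and 11 had at most 6 fragments in every library. KREMEN2, a receptor of Dickkopf proteins, was at 34.2, 20.8 and 49.4 FPKM in CTTN replicates 1 to 3 and at 14.9, 13.4 and 13.8 in the controls. CTTN replicate 3 was highest, and the log2 fold change was 1.21 ± 0.22 (SE) with an edgeR adjusted p of 0.032. DKK1, the Dickkopf that blocks LRP5 and LRP6, was at 1.03, 0.761 and 0.671 FPKM in CTTN cells and at 0.820, 1.61 and 1.80 in the controls. The FPKM ranges overlapped, while in the deposited counts all 3 CTTN libraries lay below all 3 controls (38.6% of all tested genes had groups that did not overlap). The log2 fold change was -0.77 ± 0.26 (SE) with an edgeR adjusted p of 0.12. No alternative with more than 1 library in each group called DKK1. With the length and GC offsets its value was -0.87 (edgeR adjusted p 0.053), and DESeq2 gave -0.77 (adjusted p 0.076). On log2(FPKM + 1) the value was -0.39. CTTN replicate 2 alone against the controls, a fit added after seeing the data that takes its spread from the controls, gave -1.10.

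Of the 9 R-spondin genes, receptors and ligases 4 were tested and 0 called, with LGR4 highest at a control mean of 32.0 FPKM. All 15 genes of the β-catenin core were tested and 0 were called, and the row of CSNK1A1, the priming kinase of β-catenin, was highest at 126 FPKM. Of 10 direct target genes of β-catenin 6 were tested, and 0 were called at edgeR adjusted p between 0.26 and 0.75. All 6 had log2 fold changes below 0 in the counts, whereas in mean FPKM TCF7 went from 0.435 to 0.523, the AXIN2 row from 0.390 to 0.415 and MYC from 137.7 to 138.2. MYC had the highest control mean on that list. AXIN2, the feedback target most often read out, shared its row with CEP112 and had a log2 fold change of -0.37 ± 0.32 (SE) with an edgeR adjusted p of 0.42. It was -0.61 without control replicate 1, -0.18 without control replicate 2 and -0.22 without CTTN replicate 3. On the log2(FPKM + 0.1) scale that row was at 0.056.

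Of the 12 planar polarity and calcium genes 11 were tested. RHOU, a small GTPase induced by Wnt ligands, was at 2.29, 2.48 and 2.18 FPKM in CTTN replicates 1 to 3 and at 3.82, 4.47 and 3.71 in the controls. The groups did not overlap, and the log2 fold change was -0.73 ± 0.11 (SE) with an edgeR adjusted p of 0.018. DAAM1, a formin, had the highest control mean, at 11.8 FPKM, with a log2 fold change of -0.47 ± 0.15 (SE) and an edgeR adjusted p of 0.10. The calls of both KREMEN2 and RHOU were lost when CTTN replicate 1 or any 1 of the controls was left out, at edgeR adjusted p of 0.14 to 0.18 for KREMEN2 and 0.080 to 0.12 for RHOU. With the length and GC offsets KREMEN2 was at 0.80 and RHOU at -0.49, with adjusted p of 0.0051 and 0.038. limma lost both calls, with adjusted p of 0.098 for KREMEN2 and 0.064 for RHOU on log2(FPKM + 0.1) and of 0.10 and 0.057 on log2(FPKM + 1).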

How the data were processed

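The authors sequenced poly(A) RNA from stranded libraries, trimmed and aligned the reads with STAR and assembled and quantified transcripts with Cufflinks. The submitters' processing notes name GRCh38, Trimmomatic and bcl2fastq 2.20.0. The paper's methods name hg19 instead, and the loci in the files match GRCh38. The authors deposited estimated counts, which are fragments divided by a scale per library, and FPKM for genes, start-site groups and isoforms; multiplying gene counts back gave whole numbers for 100.0% of values (relative tolerance 1e-05). The estimated counts were rounded to whole numbers for the tests. Control columns were tied to their group and not to single samples, since sample descriptions and column names disagree, and control numbers follow the deposited sample table.

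Genes were filtered with filterByExpr and tested with edgeR 4.0.16 (quasi-likelihood, TMM, Benjamini-Hochberg over all tested rows) in R 4.3.3, and called at an adjusted p under 0.05. SE is the absolute log2 fold change over the square root of F. DESeq2 1.42.0 and limma 3.58.1 (pseudocounts 0.1 and 1) were alternatives. After seeing the data, CTTN replicate 2 alone and offsets smoothed over isoform length and GC content (lowess span 0.3) were added. An exact two-sided permutation test of 3 against 3 cannot go below 0.10. The scripts were tested on simulated data. Ligands and lists were chosen with earlier results of these data known. All 10 ligands are named, and of each pathway list the members called, the most abundant member, and PORCN, WLS, AXIN2 and DKK1. ROR1, ROR2 and TCF7, and the markers CDH1, VWF, COL1A1, PECAM1, DCN and COL3A1, were named outside that rule. Paralogs and overlapping genes can share fragments. Coding-sequence tables were not used, and no protein sequence is given.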

Additional observations from a re-analysis of the deposited data

How the results depend on the processing

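Of the 7 ligand fold changes, 6 kept their direction under every alternative run, and the exception was WNT10B (-0.027 without control replicate 1, 0.30 without control replicate 2). WNT6 lost its call on log2(FPKM + 0.1) (2.45) and log2(FPKM + 1) (1.13). Same-numbered libraries had correlations of 0.03, 0.08 and -0.19, and differently numbered ones from -0.26 to 0.23. This cannot settle whether samples were paired, since control columns were not tied to single samples. With a replicate block by these numbers the WNT6 log2 fold change was 2.88, no longer past the threshold. In that fit 54 genes were called higher and 55 lower. It called 0 pathway genes in either direction (edgeR adjusted p 0.054 for KREMEN2 and 0.068 for RHOU). Leaving out 1 replicate moved WNT6 between 2.43 and 3.41, WNT5A between -0.63 and -0.41, WNT9A between -0.57 and -0.38 and WNT4 between -0.37 and -0.19. WNT5A passed the threshold under DESeq2 (-0.52) and with CTTN replicate 2 alone (-0.32), WNT9A under DESeq2 (-0.47), with CTTN replicate 2 alone (-0.30) and with length and GC offsets (-0.43), and WNT4 with CTTN replicate 2 alone (-0.42). Of the fits that left out 1 library, WNT5A and WNT9A also passed without CTTN replicate 2 and without CTTN replicate 3, and WNT4 without CTTN replicate 3. WNT5A, WNT9A and WNT4 did not pass without CTTN replicate 1 or without any 1 of the controls. WNT3, WNT7B and WNT10B were called in no fit.

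Genes called higher and lower numbered 331 and 275 as reported, 1070 and 999 by DESeq2, 107 and 73 on log2(FPKM + 0.1), 106 and 79 on log2(FPKM + 1), 1076 and 1052 with CTTN replicate 2 alone, and 1010 and 991 with length and GC offsets. Leaving out 1 replicate gave 10 to 3394 higher and 5 to 3559 lower; the largest counts came without CTTN replicate 2. Pathway genes called higher and lower, 1 and 1 as reported, were 3 and 4 by DESeq2, 0 and 0 on both FPKM scales, 9 and 6 with CTTN replicate 2 alone, 3 higher with the offsets, and 0 to 9 and 0 to 20 when 1 replicate was left out. Start-site groups called were 0 by edgeR and 1071 by DESeq2. The AXIN2 row was at 0.056 and 0.024 on the 2 FPKM scales, against -0.37. The causes were not tested. The control mean of WNT6 was 0.153 FPKM without control replicate 1, that of WNT11 0.0078 FPKM without control replicate 1 and that of WNT10A 0.0166 FPKM without control replicate 2. Depth limits WNT3A, WNT10A and WNT11, which had at most 10 fragments per library.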

Other observations

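The genes beside the ligands were read from the same fit, taking the nearest 2 tested genes on each side of the 7 tested ligands. edgeR called 0 of these 28 neighbours, against 4.20% of all tested genes. Beside WNT6, TTLL4 lay 104.4 kb before it with a log2 fold change of -0.47 ± 0.16 (SE) and STK36 lay 157.1 kb before it with -0.31 ± 0.17 (SE), with edgeR adjusted p of 0.12 and 0.23. After it came AC097468.3, 195.1 kb away, with -0.45 ± 0.55 (SE) and an edgeR adjusted p of 0.57, and the row of NHEJ1 and SLC23A3, 201.1 kb away, with -0.11 ± 0.11 (SE) and an edgeR adjusted p of 0.49. The neighbour with the largest log2 fold change was DDN-AS1, 23.4 kb after WNT10B, at 1.59 ± 0.42 (SE) with an edgeR adjusted p of 0.079, named after its value was seen.

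By the correlation of log2(FPKM + 0.1) over all 6 libraries, the genes most like WNT6 were SSB (Pearson r = 0.998), the AP3B1 row (0.997), PDCD10 (0.997), LTBP4 (0.997) and H3F3B (0.996). SSB was at 88.9, 84.8 and 93.0 FPKM in CTTN replicates 1 to 3 and at 81.6, 79.1 and 78.0 in the controls, a far smaller spread than that of WNT6. The AP3B1 row, higher in FPKM in each CTTN library, had a log2 fold change of -0.002 in the counts. The 6 points share the 2 groups and the libraries' composition, and 12.0% of the 14432 other tested rows had r above 0.9.

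Among markers of other cell types, CDH5, the endothelial cadherin, was at 1.58, 2.02 and 1.43 FPKM in CTTN replicates 1 to 3 and at 3.96, 4.45 and 4.03 in the controls, with a log2 fold change of -1.49 ± 0.17 (SE) and an edgeR adjusted p of 0.0084. It was the 1 gene called of the 7 tested on that list of 14, in a fit that called 1.91% of all tested genes lower and 4.20% in either direction, and the call was lost without CTTN replicate 1 or any 1 of the controls (adjusted p 0.065 to 0.082). PECAM1, DCN and COL3A1, which mark endothelium and fibroblasts, were too scarce to be tested, while VWF, of endothelium, and COL1A1, of fibroblasts, had log2 fold changes of -0.70 and -0.16 with edgeR adjusted p of 0.15 and 0.30. The list summed to between 616 and 643 FPKM in the controls and between 630 and 864 FPKM in CTTN cells, nearly all of it in the CD68 row, which also holds EIF4A1 and SENP3.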
